A study of Drosophila melanogaster with 6 samples.

Results

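Baseline gene expression was described in the 3 control hemocyte samples of a 6-array Drosophila melanogaster study. Hemocytes are the blood cells of the fly. The control larvae carried hml-Gal4, a driver made from the regulatory region of the hemocyte gene Hemolectin, and UAS-2xEGFP, the green fluorescent reporter that it switches on. The other 3 samples carried hml-Gal4, UAS-2xEGFP and UAS-Idh-R195H, which adds a mutant isocitrate dehydrogenase, and no test or fold change between the genotypes is given. Those arrays are described on their own at the end. Driver and reporter were thus shared by all 6 samples, and no sample without them was analysed here.

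Each control sample was one pool of circulating cells from 400 wandering larvae of the third instar, bled from the rear while the lymph gland was spared, and each pool was hybridised to 1 array. Their parents, 10 of each sex, laid eggs for 24 h, the cultures were kept at 29 °C, and the larvae were taken on day 7. The labels call the pools biological replicates and do not give the sex of the larvae. The protocol names no sorting of the cells, so every value is for all cells that a pool held.

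Of 18769 probe sets other than array controls, 13647 had exactly 1 gene symbol, and they stood for 11982 genes. Each gene was represented by its probe set with the highest mean of log2(intensity + 1) over the 3 control arrays. From these values 300 brightest genes were chosen by that mean, and 100 most variable genes were chosen by the standard deviation (SD) of the log2 values among the 6798 genes with a mean intensity above 200. Both sets were therefore selected on the measured values, so their levels and spreads are given as a description and were not tested. Intensity also depends on the probe sequences, so a rank orders probe sets, not amounts of RNA. Of the 300 brightest probe sets of any kind, 208 had 1 symbol, 85 had none and 7 had several, so the genes below cover part of the brightest signal.

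Plasmatocytes are the common type, which engulf microbes and dying cells and secrete much of the basement membrane that coats the organs. Crystal cells store prophenoloxidases, the enzymes that start melanin formation at wounds. Lamellocytes are large flat cells that wrap parasitoid eggs and are rare in healthy larvae.

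The label was checked first against 4 marker genes. Values are given in the order of control replicates 1, 2 and 3, as intensities. Hml, the clotting protein Hemolectin whose regulatory region drives Gal4 in these larvae, had intensities of 22128, 14541 and 12663 (rank 97 of 11982). Col4a1, a collagen IV chain, had 25732, 16858 and 14892 (rank 84). For both genes replicate 1 was the highest of the arrays. PPO2, the prophenoloxidase stored by crystal cells, had 35035, 32971 and 34083 (rank 31) and was level across the arrays. NimC1, a phagocytosis receptor of plasmatocytes, had 3006, 2475 and 2328 (rank 849), which placed it outside the 300 but far above the floor of 200. Each of the 4 markers was thus far above the floor on every control array.

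The 3 control arrays were not equally alike. Across the 11982 genes Pearson's r of the log2 values was 0.903 between replicates 1 and 2, 0.855 between replicates 1 and 3, and 0.930 between replicates 2 and 3. Genes are not independent replicates, so these are descriptions. Replicate 1 stood apart, with a median intensity of 80.5 against 107 and 105 on replicates 2 and 3. The ratio of the 3' to the 5' probe set of Act5C, an array control for RNA integrity that is lower when long cDNA was made, was 3.72, 4.45 and 6.17 on replicates 1, 2 and 3. For GAPDH that ratio was 2.62, 2.90 and 2.81. Replicate 3 therefore had the highest ratio for Act5C and not for GAPDH. With 1 group of 3 arrays, no test of a difference between arrays exists, and the count of variable genes is given with and without each array below.

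The brightest genes were those of the protein synthesis machinery. Among the 300, 44 genes (14.7%) belonged to translation and ribosome biogenesis, the largest of the assigned roles, and their median level was 15.10 on the log2 scale. Mitochondria and energy followed with 33 genes, lysosome and the vacuolar proton pump with 18, the cytoskeleton with 15, and hemocyte markers, receptors and immune proteins with 13. Another 14 were marker genes of other tissues, and 79 genes were given no role, 51 of which carry a CG number as their only name. The roles were assigned by hand after the values were seen. The 300 genes spanned mean levels of 12.54 to 15.69 on the log2 scale, and the dimmest had a mean intensity of 5993.

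**Figure D1:**
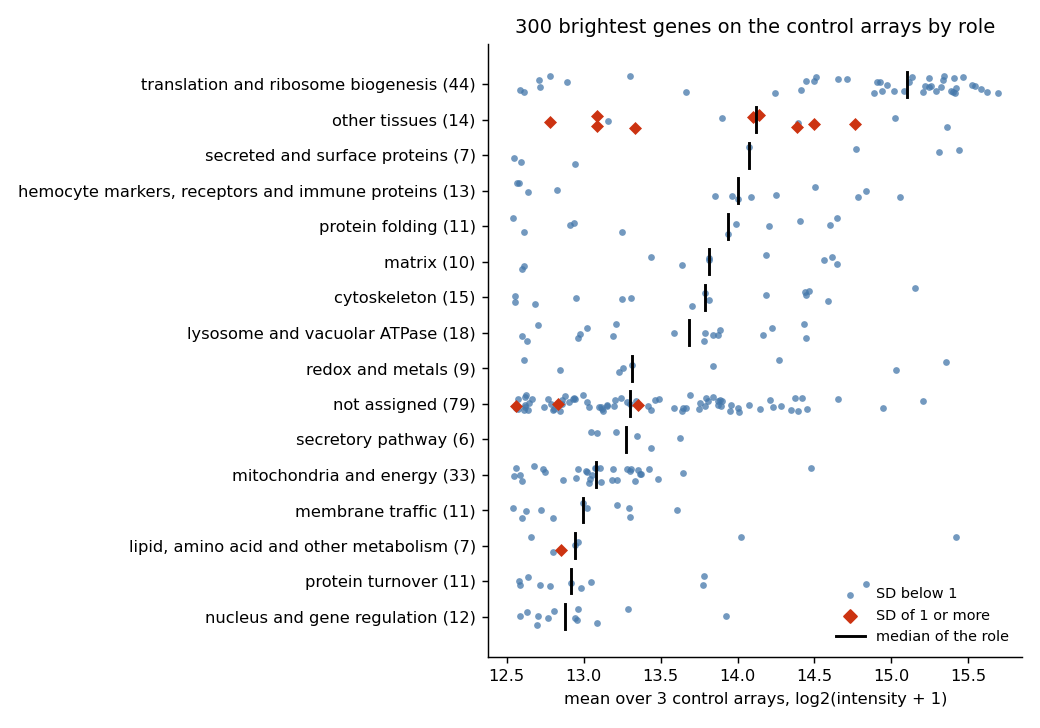
Mean log2(intensity + 1) over the 3 control arrays (horizontal axis) of the 300 brightest genes, 1 point per gene, grouped by role with the number of genes in brackets; black bars are medians of a role and red diamonds mark genes with an SD of at least 1 between the arrays. Translation genes lie furthest to the right with a median of 15.10, and 9 of the 13 red diamonds lie in the row of other tissues.

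Of 36 measured genes of the cytosolic ribosome, 30 were among the 300 and 29 among the 100 brightest. When probe sets whose names mark shared probes were left out, 13 were among the 300. RpL41, a very small protein of the large subunit, was the brightest gene of all at 52580.3, 51747 and 54791. RpLP2, an acidic protein of the ribosomal stalk, had 50767, 51006 and 49770.5, and its SD of 0.019 was the fifth lowest among the 300. RpS28b of the small subunit had 49648, 46525 and 51509. RpL41 and RpS28b were highest on replicate 3 and RpLP2 on replicate 2, and no array was far from the others. The 30 genes had SDs from 0.019 to 0.29, the largest being that of RpL27. RpS27A and RpL40, which are made as fusions with ubiquitin, were at ranks 6 and 40.

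The other 6 ribosomal genes behaved differently, and each is a paralog of a standard ribosomal protein gene. RpS19b had 432, 1798 and 3947, RpS5b had 597, 1820.5 and 3078 and RpL37-2 had 457, 1869 and 3082. Their values were lowest on replicate 1 and highest on replicate 3, with SDs of 1.62, 1.21 and 1.43. RpL10Aa and RpS10a had the same order and SDs of 1.68 and 1.16. RpS28a, at a mean level of 6.89 on the log2 scale, was below the floor. All 5 paralogs above the floor had an SD of at least 1, and none of the 30 bright genes did.

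Some translation factors were bright. The elongation factor eEF5, which carries the modified residue hypusine, had 37916, 33395 and 33067 at rank 30. The helicase eIF4A, which unwinds the start of messages, had 26388, 21172 and 18644, and eIF1, which helps choose the start codon, had 21073, 18870.4 and 18239. For these 3 genes replicate 1 was the highest. Of 40 measured initiation factor genes 39 were above the floor and 6 were among the 300. In contrast to the ribosome of the cytosol, none of the 69 mitochondrial ribosomal protein genes reached the 300, although all 69 were above the floor, led by mRpL33 at 6279, 4306 and 4740.4.

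Single genes of other kinds stood among the 30 brightest. Regucalcin, studied in mammals as a calcium-binding protein, was at rank 7 with 45454, 44793 and 42918. Fabp, a carrier of fatty acids inside cells, was at rank 8 with 44066, 43484 and 44285. Its SD of 0.014 was the lowest among the 300. MtnA, a metallothionein that binds copper and other metals, had 37747, 42009.9 and 46627, lowest on replicate 1. Twinstar (tsr), the fly cofilin that severs actin filaments, had 36840.5, 36127 and 36541 and the next lowest SD, 0.014. Nplp2, a neuropeptide-like precursor, had 45713, 35059.8 and 41891, lowest on replicate 2. CG8501, a gene known by number only, had 38233, 36705 and 38241 at rank 26. Obp99b, of the odorant-binding family and on the fat body list, had 32371, 46070.0 and 50072, lowest on replicate 1.

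The 10 genes with the lowest SD among the 300 were fabp, tsr, Fis1, CG5885, RpLP2, CG8860, ATPsynF, ND-MLRQ, CG8501 and PPO1. Fis1, which acts in mitochondrial fission, had 10717, 10472 and 10566. The ATP synthase subunit ATPsynF had 12502, 13026 and 12998, and ND-MLRQ, a subunit of the respiratory chain, had 22295, 22786 and 23362. The 3 arrays were close together for each of them. In all, 145 of the 300 had an SD under 0.2 and 13 had one of at least 1. The median SD was 0.472 for genes with mean intensities of 200 to 500 and 0.196 for genes above 10000.

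At the edge of the set, Ald1 had 9239, 5723 and 4029.7 just inside, AP-2sigma had 6791, 5969 and 5217 and Fkbp14, at rank 300, had 6393, 7069 and 4643. Just outside lay fon at 3286, 9071 and 7019, Pef at 7198, 5672 and 5105 and CG13585 at 6523, 5991 and 5247. Mean levels changed from 12.54 to 12.53 on the log2 scale over these 6 genes, so the edge is not a gap in the data. Probe set names that mark shared probes were common among the brightest: 41% of the 300 had one, against 23.5% of the genes above the floor. For those genes related transcripts may add to the intensity.

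Plasmatocyte genes were bright. Of 20 measured plasmatocyte markers, 16 were above the floor and 9 among the 300. Peroxidasin (Pxn), a matrix enzyme that cross-links collagen IV, had 33872, 23158 and 20176. Hemese (He), a surface glycoprotein found on all hemocyte types, had 21649, 16785 and 20415. Eater, a receptor for bacteria, had 25774, 15175 and 13574. Replicate 1 was the highest for each of them. The scavenger receptor Sr-CI, which takes up bacteria, had 10002, 6361 and 5980.1, and NimB4, a secreted Nimrod protein, had 20242, 12878 and 12405. The remaining markers included the GATA factor serpent (srp), needed for blood cell formation, at 8473, 6178 and 3147, and croquemort (crq), a receptor for dying cells, at 1161, 855 and 379. The list members NimC4, Sr-CII, gcm and gcm2 were below the floor.

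Genes of the basement membrane were bright as a group. Of 18 measured members 10 were among the 300. SPARC, a collagen-binding glycoprotein, had 29282, 23426 and 24513. Glutactin (Glt), a basement membrane glycoprotein, had 33191, 23113 and 18373, and papilin (Ppn), a large matrix glycoprotein, had 20907, 11640.1 and 12206. The collagen IV chain viking (vkg) had 20585, 13046 and 11059. Replicate 1 was the highest for all 4. The laminin chains LanA, LanB2 and LanB1 had 19328, 11759.8 and 9069, then 16535, 11493 and 7202, then 10128, 6088 and 3978. For the laminins replicate 3 was the lowest each time, and the SDs were 0.55, 0.60 and 0.67. Plod, an enzyme that hydroxylates lysines of collagen, had 9244, 5702 and 4531.

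The 2 lists had a similar order across the arrays, but they are not separate lists. Collagen IV genes such as Col4a1 and vkg count in both, so the counts and sums share members. Of the 16 basement membrane genes above the floor 14 were highest on replicate 1, and 11 had the order replicate 1, then 2, then 3. Of the 16 plasmatocyte markers above the floor 15 were highest on replicate 1 and 12 had that full order, 7 under quantile normalization. Over all 6798 genes above the floor 51.6% were highest on replicate 1 and 36.9% had that full order. The median log2 difference of replicate 3 from replicate 1 was -0.87 for the basement membrane genes and -0.78 for the plasmatocyte markers above the floor, against -0.18 for all genes above the floor. The basement membrane genes highest on replicate 1 remained 14 in number under each of 3 other array scalings, and the plasmatocyte markers 14 or 15, although the all-gene median itself shifted to between -0.56 and -0.04. Exceptions were trol, the perlecan of the membrane, at 1789, 4976 and 2946, and Mp, a collagen of another type, at 150.2, 273 and 381.

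In such bulk pools fewer cells of a type and less RNA per cell cannot be told apart. The summed salivary gland, fat body, midgut and testis lists were lowest on replicate 1, where the plasmatocyte and basement membrane lists were highest. The summed intensity was 227552, 150060.0 and 137777 for the plasmatocyte markers and 229581, 157136 and 133991 for the basement membrane genes. It was 24333, 268081 and 260438 for the salivary gland list and 89216, 190858 and 164052 for the fat body list. The Act5C 3' to 5' ratio was lowest on replicate 1 and highest on replicate 3, while the GAPDH ratio was highest on replicate 2. The part of other tissues and of RNA quality in the differences between the arrays was not tested.

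Lysosomal genes, which digest what plasmatocytes engulf, were bright. Of 14 measured lysosomal hydrolases and partners 8 were among the 300 and 13 above the floor. Lamp1, a major protein of the lysosomal membrane, had 25449, 22262 and 19626, and the protease cathepsin D (cathD) had 24213, 24565 and 18061. Cathepsin L (CtsL1) had 21315, 16715 and 19788 and the hexosaminidase Hexo2 23938, 17197 and 15154. Of the 13, 12 were highest on replicate 1, and between 11 and 13 were under the other scalings. Of all 6798 genes above the floor 51.6% were highest there under the deposited scaling and 2962 to 4578 genes under the others. The vacuolar ATPase, the pump that acidifies lysosomes, gave 7 of its 31 measured genes to the 300, led by Vha16-1 at 17500.4, 15692 and 12704.

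Under the deposited scaling most crystal cell genes differed little between the pools. PPO1, the other prophenoloxidase of crystal cells, had 28109, 27588 and 29062 with an SD of 0.038. CG10467, a gene on the crystal cell list, had 29150.2, 27559.6 and 30898. The same list gave 4 of 10 measured genes to the 300, and the median SD of the 10 was 0.11, against 0.38 for all genes above the floor. The array on which most of them were highest changed with the scaling, so no order is given. The median log2 difference of replicate 3 from replicate 1 was -0.04 as deposited and -0.42 with arrays centred on their medians. For all genes above the floor it was -0.18 and -0.56. Lozenge (lz), the Runx factor that makes crystal cells, was dim at 536, 258 and 243, highest on replicate 1, with an SD of 0.63. Another member, fok, had 2227, 2954 and 1885 and an SD of 0.33. The values do not tell how many crystal cells a pool held.

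Of 13 measured lamellocyte genes 11 were above the floor and 1 was among the 300. That gene was betaTub60D at 17414, 15623 and 10378, a tubulin that other cells express as well. Atilla, the surface protein used to stain lamellocytes, had 1059.6, 1534 and 2388. PPO3, the prophenoloxidase of lamellocytes, had 649, 444 and 618, and the integrin chain ItgaPS4 had 265, 419.7 and 393. Atilla was lowest on replicate 1 and highest on replicate 3, PPO3 was lowest on replicate 2, and ItgaPS4 was lowest on replicate 1, so these markers had no common order. Shotgun (shg), the fly E-cadherin on the same list, was below the floor.

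Immune effectors were uneven. Metchnikowin (Mtk), an antifungal peptide, was at rank 94 with 15181, 14742 and 19823. Drosomycin (Drs), another antifungal peptide, had 6998, 3734 and 5224. Diptericin B (DptB), active against bacteria, had 509.9, 7451 and 2670.4, and Defensin (Def) had 60.2, 1303 and 61.7. The last 2 were highest on replicate 2, where attacin D (AttD) at 236, 1519 and 235 and cecropin B (CecB) at 226, 791 and 118 were highest as well. Of 12 measured antimicrobial peptide genes 8 were above the floor and 5 of these (62.5%) had an SD of at least 1, against 19.5% of all genes above the floor. None of the 8 measured Bomanin and Daisho genes, small peptides of the Toll response, and none of the 5 measured Turandot genes, induced by stress, had a mean above 200. The growth factors Idgf6 at 28564, 20389 and 21386 and Idgf3 at 7422, 5719 and 5256, members of a family of chitinase-like proteins, were also among the 300.

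The spread between the control pools was wide. Of the 6798 genes above the floor 1329 (19.5%) had an SD of at least 1, and the median SD was 0.378. Replicate 1 was the lowest array for 1282 of the 1329 genes. Replicate 3 was the highest for 1131, replicate 2 for 174 and replicate 1 for 24. The single commonest order, lowest on replicate 1 and highest on replicate 3, held 1129 genes (85.0%), whereas 25.7% of all genes above the floor had it. Without replicate 1, 512 genes had an SD of at least 1. Without replicate 2 they were 1477 and without replicate 3 they were 960, on the SD of the remaining 2 arrays.

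**Figure D2:**
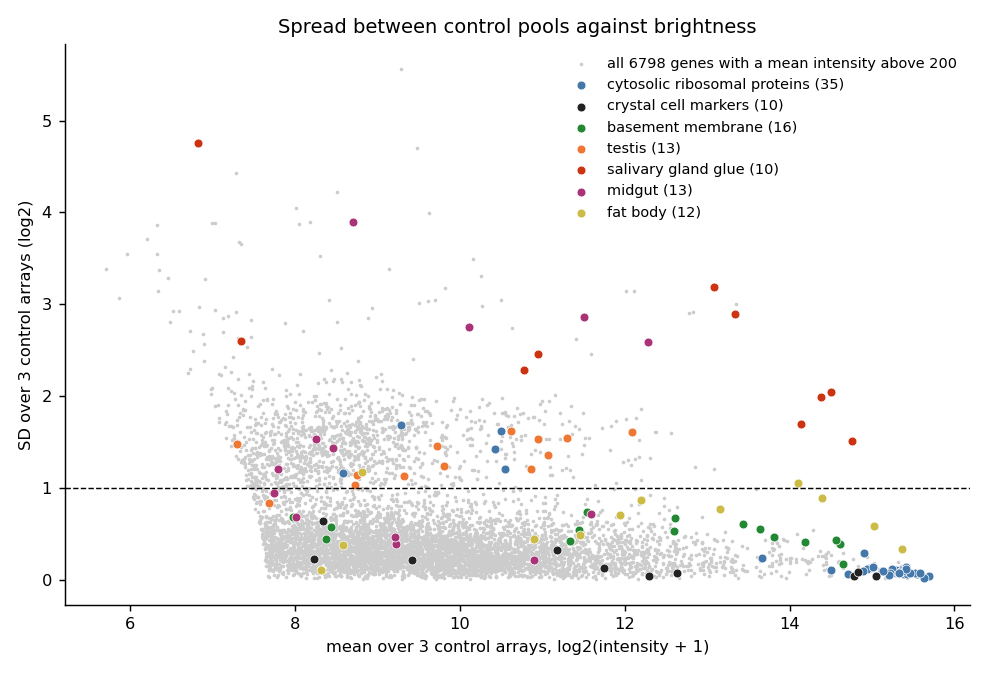
SD of the log2 values over the 3 control arrays (vertical axis) against their mean (horizontal axis) for the 6798 genes with a mean intensity above 200; coloured points are members of marker lists and the dashed line marks an SD of 1. Ribosomal protein genes lie at the lower right except 5 paralogs above the line, and all 10 salivary gland genes lie above it.

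**Figure D3:**
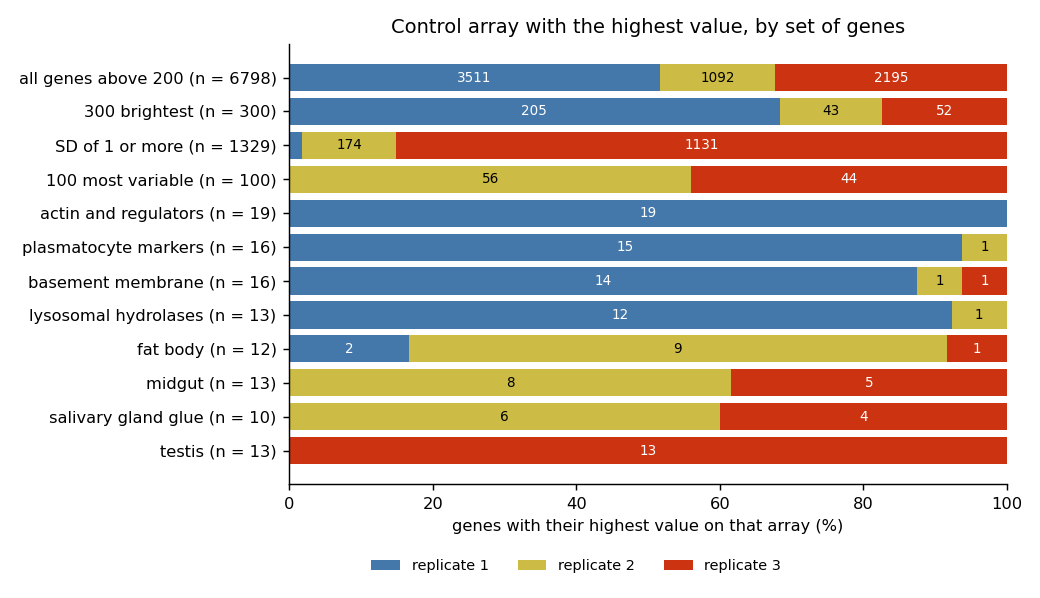
Share of genes (horizontal axis, percent) with their highest value on control replicate 1, 2 or 3, for sets of genes and for members of marker lists with a mean intensity above 200; numbers in the bars are genes. Of the 1329 genes with an SD of at least 1, 1131 were highest on replicate 3, and all 13 testis genes were highest there.

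The 1129 genes with that order had median log2 levels of 6.92, 8.66 and 9.90 on replicates 1, 2 and 3, and 70.1% of them carried a CG number as their only name, against 38.6% of all genes above the floor. On replicate 1 only 248 of them exceeded an intensity of 200, on replicate 2 the number was 1023, and on replicate 3 all did. Marker genes of the testis were among them. In wandering male larvae the testis already holds spermatocytes, the germ cells that transcribe most sperm genes before meiosis.

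Of 14 measured testis genes 13 were above the floor and 12 had an SD of at least 1. All 13 were lowest on replicate 1 and highest on replicate 3 under the deposited scaling and under each of 3 others. Median log2 levels over the 14 were 8.37, 9.88 and 11.06. Mst84Dc, a cysteine-rich protein of the sperm tail, had 1361, 4869 and 12608. Mst87F of the same family had 506, 1599 and 4772, and Mst98Ca, also of the sperm tail, had 799.6, 2997 and 6683. ProtA, a protamine-like protein that packs sperm chromatin, had 363, 979 and 2024. Don juan (dj), found in sperm mitochondria and nuclei, had 196, 471 and 814. In each case replicate 3 was at least 4 times as bright as replicate 1. Bag of marbles (bam), which acts in earlier germ cells, stayed under the floor at 103, 134 and 158, with an SD of 0.31. Mst77F, a chromatin protein of sperm that was not on the list, was among the 300 brightest at 3311, 13404 and 14857. The summed intensity of the testis list was 6452, 20415 and 46523.

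Several further groups with that order were put together by name after the values were seen. Of 13 measured regulators of spermatocyte transcription 10 were above the floor, all 10 highest on replicate 3. Among them no hitter (nht), a testis form of a TFIID subunit, had 22.6, 240.1 and 619, and spermatocyte arrest (sa), another such subunit, had 87.9, 271 and 651. Cannonball (can) had 48.2, 231 and 337. In contrast mip40, whose protein also acts in a complex of other cells, had 1388, 1129 and 1779 and an SD of 0.33. All 4 measured S-Lap genes, peptidase relatives abundant in sperm, shared the order, with S-Lap7 at 495, 2417 and 7197. So did the 7 cup genes above the floor of 11 measured, which spermatids transcribe after meiosis, led by w-cup at 552, 2083 and 3625. The order also held for 8 of 8 genes of radial spokes and dynein assembly, parts of the sperm flagellum, with Dnaaf6 at 363, 1573 and 4425. The floor is a mean over the same 3 arrays, so a dim gene can pass it through the array where it is high. Over all 11 cup genes median log2 levels were 6.36, 7.99 and 9.37. Of all genes above the floor 25.7% had the order.

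Paralogs of housekeeping genes were compared with their standard copies. The fly proteasome has testis-type subunits encoded by duplicated genes. Of 14 such genes measured 13 were above the floor, and all 13 had an SD of at least 1 and were highest on replicate 3. Of the 26 standard subunit genes, all above the floor, none had an SD of at least 1. Prosalpha6T had 138, 471 and 1326 and Prosbeta4R1 had 78.7, 338 and 1603, both far lower on replicate 1. The standard subunit Prosbeta3 had 6867, 8612 and 8944 and Prosbeta7 had 7159.6, 7789 and 8307. Median log2 levels over the measured members were 6.72, 8.16 and 9.56 for the testis-type list and 12.01, 12.07 and 11.98 for the standard list. The respiratory chain gave the same picture. All 19 of its like-copies above the floor (22 measured), genes named for a standard subunit with an added L, had an SD of at least 1, against 1 of 51 standard genes. COX4L had 369, 1329 and 3735, whereas its namesake COX4 had 9578, 8163 and 7893.

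**Figure D4:**
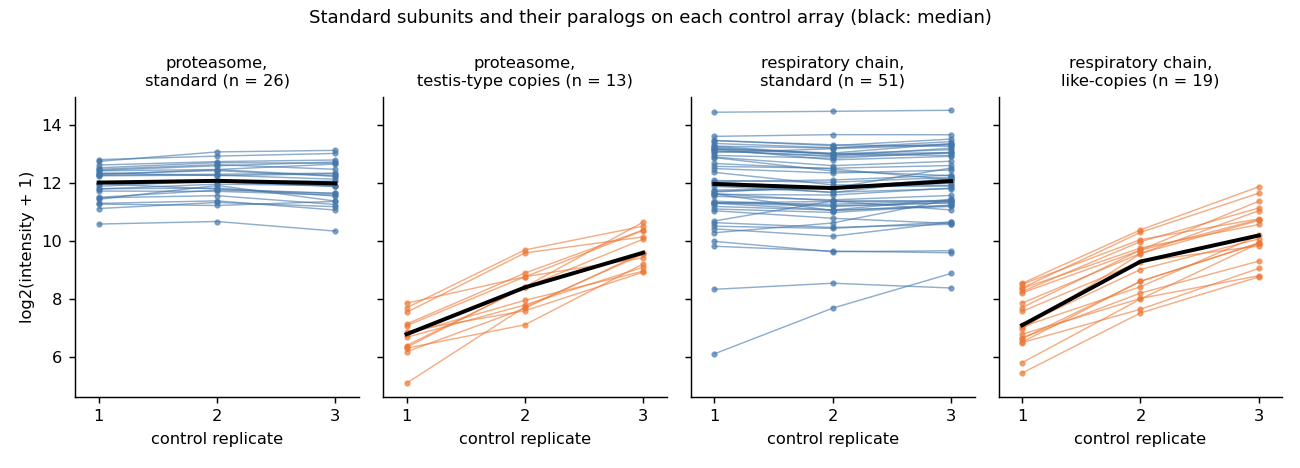
Level in log2(intensity + 1) (vertical axis) on control replicates 1, 2 and 3 (horizontal axis) for genes with a mean intensity above 200; each thin line joins the values of 1 gene and the black line is the median. The 13 testis-type proteasome genes and the 19 like-copies were lowest on replicate 1 and highest on replicate 3, while 0 of 26 standard proteasome genes had an SD of at least 1.

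Paralogs in other families had the same order. Of 39 initiation factor genes above the floor 8 had an SD of at least 1, a share of 20.5% that is near the 19.5% of all genes above the floor. Among the 8 were eIF4E3 at 505, 2426 and 5709 and eIF4E4 at 97.5, 425 and 2008, paralogs of the cap-binding protein. The testis tubulin betaTub85D had 973, 4371 and 9149.6, with an SD of 1.65, whereas betaTub56D, used in most cells, had 13828, 9586 and 7829. TrxT, the testis thioredoxin encoded on the X chromosome, had 1487, 5434 and 8067, and the general thioredoxin Trx2 had 4542, 3736 and 4816. Among vacuolar ATPase genes 9 of the 26 above the floor had an SD of at least 1, such as Vha68-3 at 157, 698 and 1487. For each of these testis-type paralogs replicate 1 was the lowest. Of the 1129 genes 12.8% of those placed lay on the X chromosome, against 15.5% of all genes above the floor, using RefSeq's Release 6 table for the chromosome only.

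Like the testis genes, the Act5C 3' to 5' ratio was lowest on replicate 1 and highest on replicate 3. The GAPDH ratio, at 2.62, 2.90 and 2.81, was highest on replicate 2. The part of RNA quality in the spread was not tested.

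Salivary gland genes held much of the spread among bright genes. At the wandering stage this gland makes the glue by which the pupa sticks to a surface, encoded by the Sgs genes. Of 13 measured glue and secreted protein genes 10 were above the floor, all 10 with an SD of at least 1, and 6 were among the 300 brightest. Sgs3 had 4505, 52842 and 52056, Sgs7 had 8302, 47025 and 54781 and Sgs4 had 1025, 36631 and 29426. Replicate 1 was several-fold below both other arrays for all 3, and replicates 2 and 3 were closer to each other. The highest intensity was 52842.5 on replicate 2, that of Sgs3, and 56234.5 on replicate 3. Whether such bright signals were limited at the top of the range was not tested. Sgs5bis had 683, 37155 and 25916, with an SD of 3.19. Eig71Ee, an ecdysone-induced gene of a late puff, had 689, 24777 and 20274. CG12310 and CG7606, which have no role assigned, had the same shape at 962, 44912 and 26628 and 709, 25084 and 21788 and were among the 300 as well. Their ranks rest on replicates 2 and 3, and on replicate 1 none of these 4 reached 1000.

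Another salivary group was high on replicate 2. The genes ng2 and ng3, for new glue, are active before the Sgs genes. Ng2 had 27.3, 4876 and 9.57, an SD of 4.75, and ng3 had 39.9, 1249 and 83.4, both under 100 on the other arrays. Pig1, which lies beside Sgs4, had 80.3, 6115 and 1472, also highest there. The gene with the largest SD of all was CG13947 at 559, 31182 and 13.1, followed after ng2 by CG14265 at 259, 27300.0 and 50.5 and CG13946 at 65.1, 4705 and 11.2. All of these were at least 4 times as bright on replicate 2 as on either other array. No role is given for the CG genes. By RefSeq order CG14265, ng2 and ng3 are neighbours, as are CG12506, CG13946 and CG13947. In all 27 of the 100 most variable genes lay in 12 runs of adjacent protein-coding genes. Such runs were not counted for other sets of genes, so whether 27 is many was not tested.

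Most midgut genes above the floor were also highest on replicate 2. Of 40 measured midgut genes 13 were above the floor, 8 of them highest on replicate 2 and 5 on replicate 3. Of all genes above the floor 16.1% were highest on replicate 2 and 32.3% on replicate 3. A gene can pass the floor through 1 bright array alone, so these counts depend on the filter. Over all 40 genes median log2 levels were 6.28, 6.76 and 7.08. Jon65Aiv, a Jonah serine protease that digests food, had 915, 32870.1 and 4153, and Jon65Aiii had 502, 25149.9 and 1956. Jon25Bi had 24.8, 5641 and 497 and an SD of 3.89. The lysozymes of the gut, LysS and LysP, had 424, 16167 and 2915 and 20.2, 2463 and 609.6. For all 5 genes replicate 2 stood far above the rest, with replicate 3 in the middle. The protease gene yip7 at 598, 18013 and 2746 and Acbp4, for an acyl-CoA-binding protein, at 30.3, 5861 and 132 had that order too. The summed intensity of the midgut list was 8578, 85246 and 18738.

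Of 12 measured fat body genes all were above the floor, 5 were among the 300 and 9 were lowest on replicate 1. Of all genes above the floor 34.5% were lowest there. The fat body is the larva's storage organ and secretes the storage proteins of the blood. Larval serum protein 2 (Lsp2) had 21016, 43958 and 39941, and the receptor for storage proteins Fbp1 had 10730.0, 34657 and 26917. Fbp2 had 7659.9, 30272 and 23303, and apolpp, the main lipid carrier of the hemolymph, had 4968, 13587 and 11347. Replicate 2 was the highest for all 4. Their SDs ran from 0.58 for Lsp2 to 1.05 for Fbp2, whereas each salivary gland gene above the floor had at least 1.51. Fondue (fon), a clotting protein on another list, had 3286, 9071 and 7019 and the same order.

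**Figure D5:**
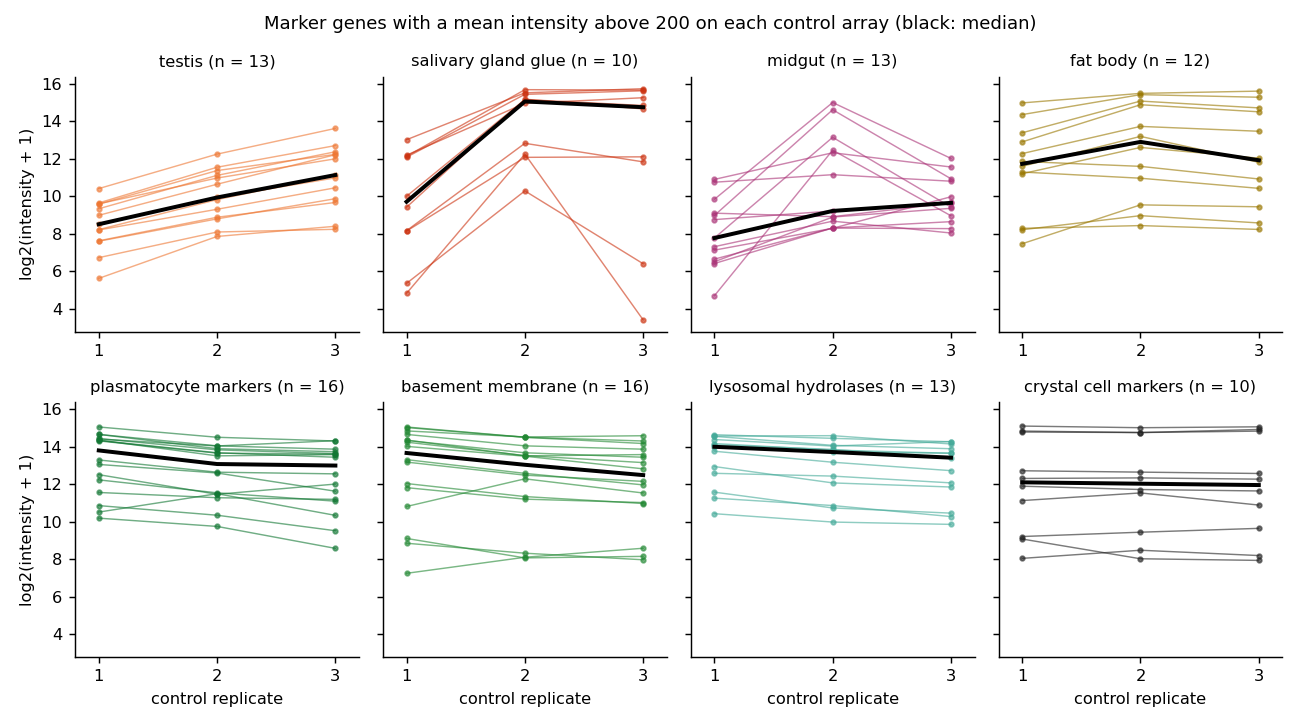
Level in log2(intensity + 1) (vertical axis) on control replicates 1, 2 and 3 (horizontal axis) of marker genes with a mean intensity above 200; each thin line joins the values of 1 gene and the black line is the median of the list. Testis genes were lowest on replicate 1 and highest on replicate 3, salivary and midgut genes were low on replicate 1, and the crystal cell list had a median SD of 0.11.

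Neuronal, cuticle and tracheal markers were mostly below the floor, whereas 56.7% of all measured genes were above it. Of 14 neuronal genes 1 was above the floor, nrv3, a subunit of the sodium pump, at 3944, 1973 and 1878. The neuronal RNA-binding protein elav had 175, 99.7 and 98.9. Of 80 cuticle genes 5 were above the floor, led by Cpr49Ac at 15574, 18315 and 12458, a rank of 103. Of 7 tracheal genes 1 was, Cht2 at 297, 309.9 and 326. Of 4 genes of the Malpighian tubule, the fly's kidney, 2 were, the transporter gene Oatp58Dc at 209.8, 305 and 562 and ry, for xanthine dehydrogenase, at 331, 275 and 206. Muscle gave 10 of 18, led by Zasp52, a protein of the Z-disc and of integrin adhesions, at 1025, 1060.5 and 672. The muscle and Malpighian tubule lists were thus near the share of all genes, and not dim by this measure. The contractile genes Mlc2 and up, for a myosin light chain and troponin T, were below the floor. Of the members above the floor in these lists, 2 cuticle genes and 1 muscle gene had an SD of at least 1, the widest being Cpr78E.

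Only 24 of the 1329 genes were highest on replicate 1, and they were looked at after their values were seen. Cpr78E, a cuticle protein gene, had 2111, 287 and 113 and the largest SD among them, 2.15. Relish (Rel), the NF-kappaB factor of the Imd immune pathway, had 8721, 1481 and 1246. Pirk, a target and inhibitor of the same pathway, had 2176, 505 and 319. Vir-1, a gene induced by viruses, had 7961, 981 and 1004, and Gadd45, a stress-response gene, had 3304, 523 and 230.5. Inos, the enzyme that starts inositol synthesis, had 18985, 5869 and 3642 and was the only one of the 24 among the 300. For each gene replicate 1 stood alone, several-fold above the other arrays. Of 11 Imd pathway members above the floor, on a list also made after the values were seen, 2 (18.2%) had an SD of at least 1, Rel and pirk. This share is near the 19.5% of all genes above the floor. The adaptor imd had 658, 649.7 and 547 while the caspase Dredd had 1185, 1135 and 1003. The AP-1 subunits Jra at 4009.5, 1536 and 1429 and kay at 2552, 1191 and 807 were highest on replicate 1 with SDs of 0.83 and 0.84.

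The 3 Idh-R195H arrays, which the choice of genes did not use, were ranked by the same rule, each group on its own. Of the 300 brightest control genes 217 were among the 300 brightest there, a share of 72.3% of each list. RpL41 had 32622, 31275 and 32493 on the Idh-R195H replicates 1, 2 and 3 and was the brightest gene there. The median SD there was 0.119 over 6296 genes above the floor, and 100 genes had an SD of at least 1. Of the 100 most variable control genes 26 had a mean above 200 there, and 5 of these had an SD of at least 1. Of the 1129 genes lowest on control replicate 1 and highest on replicate 3, 860 had a mean above 200 there and 6 an SD of at least 1. Of all 6798 genes above the floor on the control arrays, 5997 had a mean above 200 there and 84 an SD of at least 1. Few genes of any kind thus varied that much on those arrays. Median log2 levels of the 1129 genes on the Idh-R195H arrays were 8.35, 8.41 and 8.17. Mst84Dc, for example, had 3736, 3763 and 3486. Fbp1 of the fat body did vary there, at 903, 3937 and 14487. The summed intensity of the testis list was 17884, 17577 and 15224 on those arrays. The Act5C 3' to 5' ratio on those arrays was between 2.13 and 2.39, and the GAPDH ratio was between 2.04 and 2.40.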

How the data were processed

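The authors deposited 1 linear probe set intensity per array for 3 control and 3 Idh-R195H hemocyte samples. Per the labels' protocols, biotin-labelled cRNA was made from 6 ug of total RNA by the Affymetrix procedure. The submitters' processing notes list Partek 6.0 without saying for which step, and the summarisation method is not given in the sources used here. From the values, each array has a trimmed mean of 500.0 (2% left out at each end), so an array's values depend on its other genes. Of 18952 probe sets, 183 array controls were left out. Gene symbols came from GEO's platform annotation (4720 probe sets had none and 402 had several), and 11893 of 11982 genes matched RefSeq's Release 6 table with 0 changed symbols. That table was used for names, chromosomes and neighbours, and no sequences were used here.

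Intensities were transformed as log2(value + 1), which understates differences of dim genes, and means and SDs were taken over 3 arrays with pandas 2.3.3 and numpy 2.4.6 in Python 3.11.15. No test was made, as there is 1 group and the members were chosen by these values. The steps were checked on simulated data. The number of arrays limits the precision, and between 48.8% and 54.0% of probe sets lay below an intensity of 100.

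The genes named were taken from the 30 brightest, the 30 with the highest SD, the 10 with the lowest SD among the 300, those just inside and outside the 300, the 4 markers, and up to 6 members of each of 47 gene lists, chosen by level and SD. Some markers of other tissues are given though dim. Other list members and paralogs, and CG12310, CG7606, Gadd45, Inos, Mst77F, vir-1 and yip7, were named after their values were seen. The members and lists were chosen with earlier results of these data known, and 9 lists and the roles of the 300 were added after the values were seen. Alternatives were other array scalings, constants, floors, probe sets and measures of spread, and leaving out each array.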

Additional observations from a re-analysis of the deposited data

How the results depend on the processing

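No paired analysis was possible because the values come from 1 group with no test. Of 65 values under alternative settings, 52 stayed within 1.5 times the count as reported, or for the median SD within the spread of its leave-one-out values, 0.10. Leaving out probe sets with shared-probe names left 180 of the 300 brightest genes and 13 of the 30 ribosomal genes; the construction removes such probe sets. The 300 kept 269 to 288 genes when 1 array was left out and 284 to 300 under the other settings. Of the 100 most variable genes 52 to 63 were kept when 1 array was left out. With a floor of 500 it was 59, by coefficient of variation 59 and with the floor on the dimmest array 14. Of these 100 genes 18 exceeded the floor of 200 on control replicate 1, 89 on replicate 2 and 73 on replicate 3. A floor on the dimmest array could therefore keep at most 18 of them. The cause of the other changes in this set was not tested. Genes with an SD of at least 1 numbered 512 to 1477 when 1 array was left out (512 without replicate 1), 682 with a floor of 500 and 2730 with no floor. The median SD was 0.53 with arrays centred on their medians and 0.26 to 0.45 when 1 array was left out. Scaling on the 18 hybridisation controls, quantile normalization and a constant of 16 moved none of these counts by over 1.5 times. The Idh-R195H count of 100 was 95 to 103. The planned sequence features were not run, since no promoter or protein sequence was used here. The array that was highest for most genes of the ribosome, respiratory chain and crystal cell lists changed with the scaling, and the actin genes highest on replicate 1 were 12 to 19 of 19. Precision is limited by 3 arrays, and no detection call per probe set was used here.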

Other observations

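Energy metabolism and protein folding made up a further part of the bright genes. Of 10 measured glycolysis genes 9 were above the floor and 2 among the 300, enolase (Eno) at 7177, 6686 and 5815 and the aldolase Ald1. Mdh1, malate dehydrogenase of the cytosol, had 9483, 12131 and 9569. The small heat shock protein Hsp27, a chaperone, had 31395, 25468 and 21082, and Hsc70-4, the constitutive chaperone of the cytosol, had 22176, 13444 and 12917. Of 8 heat shock genes above the floor 7 were highest on replicate 1, and all 8 subunits of the TCP-1 chaperonin were, with median log2 differences of replicate 3 from replicate 1 of -0.54 and -0.52. Under the other scalings all 8 chaperonin genes and 6 to 8 of the heat shock genes were highest on replicate 1. Among all 6798 genes above the floor 51.6% were highest there under the deposited scaling and 2962 to 4578 genes under the others. Ferritin, which stores iron, gave Fer1HCH at 23456, 18795 and 17387 and Fer2LCH at 12258, 9674 and 7473, both highest on replicate 1. The glutathione transferase GstD1 had 38446, 31215 and 31043.

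No member of the list of hemocyte transcription factors was among the 300. As the 300 come from 11982 genes, a list this short can hold none of them, so this is not read as a trait of the list. Of 17 measured 12 were above the floor and 11 of these were highest on replicate 1, against 51.6% of all genes above the floor. The order replicate 1, then 2, then 3 held for 10 under the deposited scaling and under each of 3 others. Of all 6798 genes above the floor 36.9% had that order under the deposited scaling and 2098 to 2885 genes under the others. Serpent was the brightest, followed by Stat92E, the factor of the JAK/STAT pathway, at 4249, 2589.6 and 1857. Zfh1, a zinc-finger factor, had 4005, 2214 and 1320.3, and U-shaped (ush), a partner of serpent, had 1848, 1294 and 729. Knot (kn), the factor of the lymph gland niche, was below the floor at 41.9, 39.1 and 40.8. Among cell cycle genes none of 21 was in the 300, which is likewise not read as a trait of that list. The replication clamp PCNA led them with 2131, 1545 and 1926.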
